A study of Canis lupus familiaris with 32 samples.

Results

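Skin biopsies taken 48 h after a house dust mite patch were compared with biopsies taken 24 h after one in the same 8 dogs. All arrays whose titles give the challenged side at 48 h or at 24 h were used, which is 16 of the 32 arrays in the study, 8 per time and 1 pair per dog. The animals were Maltese-beagle atopic dogs, 5 males and 3 females aged 5.5 to 10.5 years, and every dog had been sensitized through the skin to the mite Dermatophagoides farinae. They had been chosen because an earlier mite challenge gave them acute lesions, so both times describe dogs known to react. The mite patch lay on the lateral thorax. The other 16 arrays are challenged skin at 6 h and control skin 6 h after a mineral oil patch. By their labels the 48 h and 24 h groups differ only in the time since patching.

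A mite patch on sensitized skin is a model of the atopic dermatitis flare. In such skin, epidermal alarm signals and type 2 cytokines come early, and chemokines then draw T cells, dendritic cells and monocytes from the blood. Keratinocytes respond to injury and cytokines by dividing and by making antimicrobial proteins such as calprotectin. The step between 24 h and 48 h asks which of these programmes were still changing on the second day. Signals below are log2 array signals of a probe set, given as the lowest, median and highest of 8 dogs. Changes are 48 h minus 24 h on the log2 scale, from a model that compares each dog with itself. In bulk skin, fewer cells of a type and less RNA per cell cannot be told apart.

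The second day was mostly a day of rises. Of 42860 probe sets, 1017 rose (2.37%) and 79 fell (0.184%) at 48 h against 24 h, which is 2.56% in all (limma, adjusted p under 0.05). Among 10513 probe sets that could be given a gene name, 290 rose (2.76%) and 10 fell (0.0951%), 2.85% in all. The rises had a median size of 0.55 and the falls of -0.43, while the median change over all probe sets was 0.01. Few changes were large: 121 rises and 4 falls reached 2-fold. In 479 of the rises and 45 of the falls, all 8 dogs moved the same way. The groups still overlapped for nearly every probe set. All 48 h arrays lay above all 24 h arrays for 10 probe sets (0.0233%) and below them for 4 (0.00933%).

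The dogs did not contribute alike. Across the 290 named genes that rose, the median difference within a dog was 0.62, 0.60, 0.25, 0.79, 0.97, 0.59, 0.08 and 0.55 in dogs 1 to 8. Dog 7 thus changed least, with 185 of the 290 genes higher at 48 h, while in dog 5 all 290 were higher. Over all linked genes the median difference was 0.23 in dog 5 and -0.03 to 0.04 in the other dogs. The values of dog 5 thus include a shift of the whole array. Leaving out 1 dog at a time gave 247 probe sets past the test when dog 5 was missing, 270 when it was dog 4, 461 for dog 2, 492 for dog 1 and 553 for dog 8, but 1627 for dog 7. Dog 5 also had the 24 h array of lowest median signal, 4.64, with the next lowest at 4.84. Without that array, 636 probe sets passed.

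The biopsies also differed in what tissue they held. The mean signal of 12 linked skeletal muscle genes was 3.51 to 3.79 at 48 h, against 3.37 to 8.18 at 24 h. The 24 h arrays of dogs 2 and 4 made up the high end, and no 48 h array was rich in muscle. In limma 0 of the 12 muscle genes passed, and 0 did so before adjustment at 0.05. Yet their median change was -0.98, and 0 of the 12 were higher at 48 h. With 2 muscle-rich arrays at 24 h the errors were wide (muscle marker MYH2 -2.56, SE 1.75). The count of 0 thus cannot show that muscle content was alike. The difference in the beta-actin control between its 3' and 5' probe sets, which is wider when RNA is more degraded, was 1.79 ± 0.29 at 48 h and 2.08 ± 0.37 at 24 h (SD, n = 8; exact permutation over sign changes within dogs, 2-sided p = 0.0625, adjusted p = 0.31 over 5 measures). It was narrower at 48 h mostly in dogs 1 and 4, by 0.78 and 0.82. The same difference changed by -0.11 in a second beta-actin control and by 0.03 in the GAPDH control (exact permutation p = 0.55 for each). A fit with the gap of the first beta-actin control as a covariate gave 314 probe sets. Without the 9 muscle-rich arrays of the 4 groups 207 passed. The part of tissue makeup and RNA quality in the changes was not tested.

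**Figure D1:**
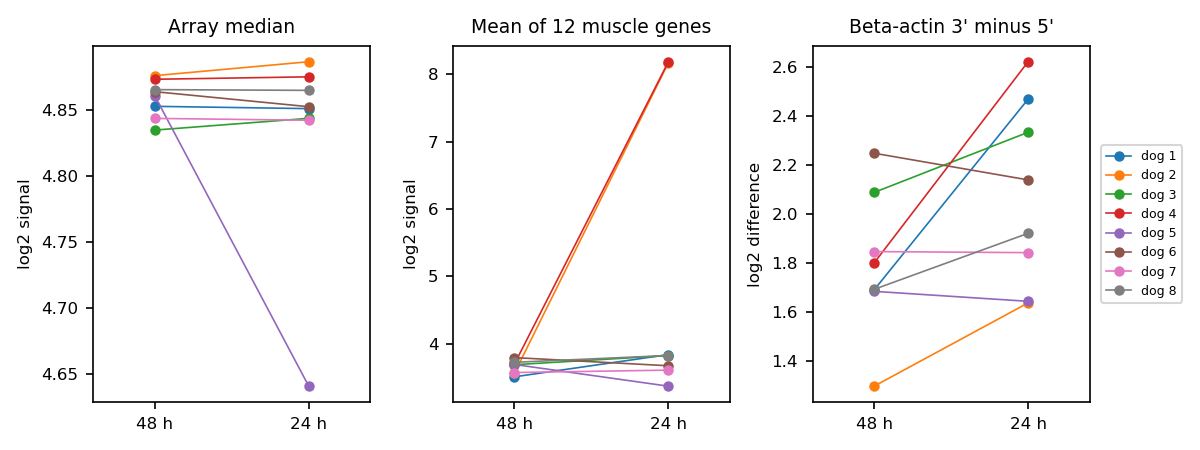
Median signal, mean signal of 12 muscle genes and beta-actin 3' minus 5' difference of each array (log2, vertical axes) at 48 h and 24 h, with 1 line per dog. The 24 h array of dog 5 is low in median signal at 4.64, and the 24 h arrays of dogs 2 and 4 are high in muscle.

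Of the linked genes past the test that rose in at least 7 of 8 dogs, an oxidase-like transcript, S100A9 and S100A12 rose most. LOC611632, annotated by the authors as ceruloplasmin-like, a name shared with a copper-carrying oxidase, had signals of 6.89, 10.45 and 11.94 at 48 h, against 3.29, 7.73 and 8.88 at 24 h. It rose by 3.37 (SE 0.60, limma adjusted p = 0.0038) in 8 of 8 dogs, and 6 of the 8 arrays at 48 h lay above every 24 h array. S100A9, which pairs with S100A8 to form calprotectin, had signals of 10.60, 12.56 and 13.39 at 48 h, against 7.66, 9.92 and 12.15 at 24 h. S100A9 rose by 2.45 (SE 0.48, limma adjusted p = 0.0068), in every dog, though the groups overlapped in 3 dogs' 48 h arrays. Its mean signal was 8.29 in oil-patched skin, and the mite patch gave 6.90 (6 h), 9.83 (24 h) and 12.27 (48 h).

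The other calgranulins moved the same way. S100A12, an alarmin of neutrophils and keratinocytes that signals through RAGE, had 10.97, 12.28 and 12.98 at 48 h, against 8.20, 10.18 and 12.08 at 24 h. It rose by 2.10 (SE 0.48, limma adjusted p = 0.018) in 8 of 8 dogs. S100A8 was bright at both times, with 12.63, 13.27 and 13.63 at 48 h, against 9.98, 12.19 and 12.76 at 24 h. S100A8 rose by 1.49 (SE 0.33, limma adjusted p = 0.013) in 8 of 8 dogs. For each of these 2 genes, 6 of the 8 arrays at 48 h exceeded all 24 h arrays. Leaving out dog 4 gave S100A12 an adjusted p of 0.107 and S100A8 one of 0.0765, and leaving out dog 8 gave 0.057 and 0.0527. Leaving out dog 5 gave S100A8 one of 0.0509. In the fit with the actin gap limma called 0 of these 3, with adjusted p of 0.113 for S100A12, 0.0860 for S100A8 and 0.0535 for S100A9. Without the muscle-rich arrays S100A12 had 0.0686 and S100A8 0.0575, and in the fit that ignored the dog S100A12 had 0.0668. The rise of S100A9 was largest in dogs 1, 4 and 8, at 3.56, 4.56 and 3.56. Their actin gap was narrower at 48 h by 0.78, 0.82 and 0.23. In dogs 2 and 3 the gap was narrower by 0.34 and 0.25, and S100A9 rose by 1.76 and 1.71. In dogs 5, 6 and 7 the gap was wider by 0.04, 0.11 and 0.004, and S100A9 rose by 1.17, 2.45 and 0.81. A link between gap and rise was not tested.

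The calgranulins were the only linked members of their own list to pass. Of 20 linked genes of calgranulins, IL36 cytokines and the Th17 and Th22 response, these 3 rose and none fell, with a list median of 0.13 against 0.02 over all linked genes. In sign 16 of the 20 were higher at 48 h, and 7 were below 0.05 before adjustment. IL8, a neutrophil chemokine, differed by 0.74 (adjusted p = 0.71) and IL36G, an epidermal IL36 cytokine, by 0.59 (adjusted p = 0.14). LCN2, an iron-binding protein of neutrophils and epidermis, differed by -0.53 and was lower in 7 of 8 dogs (adjusted p = 0.34). The cytokines IL17A, IL22 and IFNG differed by 0.05, 0.07 and 0.01 (adjusted p = 0.85, 0.83 and 0.97), at signals of 2.48 to 3.44 in both groups. These lie below the array medians of 4.64 to 4.89, where changes in RNA may not be seen. IL1F8, an older name of the epidermal cytokine IL36B, stood outside the list and was chosen after its value was seen. It rose by 1.17 (SE 0.31, limma adjusted p = 0.038) in 8 of 8 dogs, but 6 of the dogs each ended this call when left out (adjusted p up to 0.18). Of 4 granulocyte markers only FPR2 was linked, at 2.67 to 3.20 at 48 h, against 2.76 to 3.58 at 24 h, also below the array medians. In the longer granulocyte list 1 of 12 linked genes rose and none fell, with a median of 0.08. That riser was S100A12, already counted among the calgranulins.

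**Figure D2:**
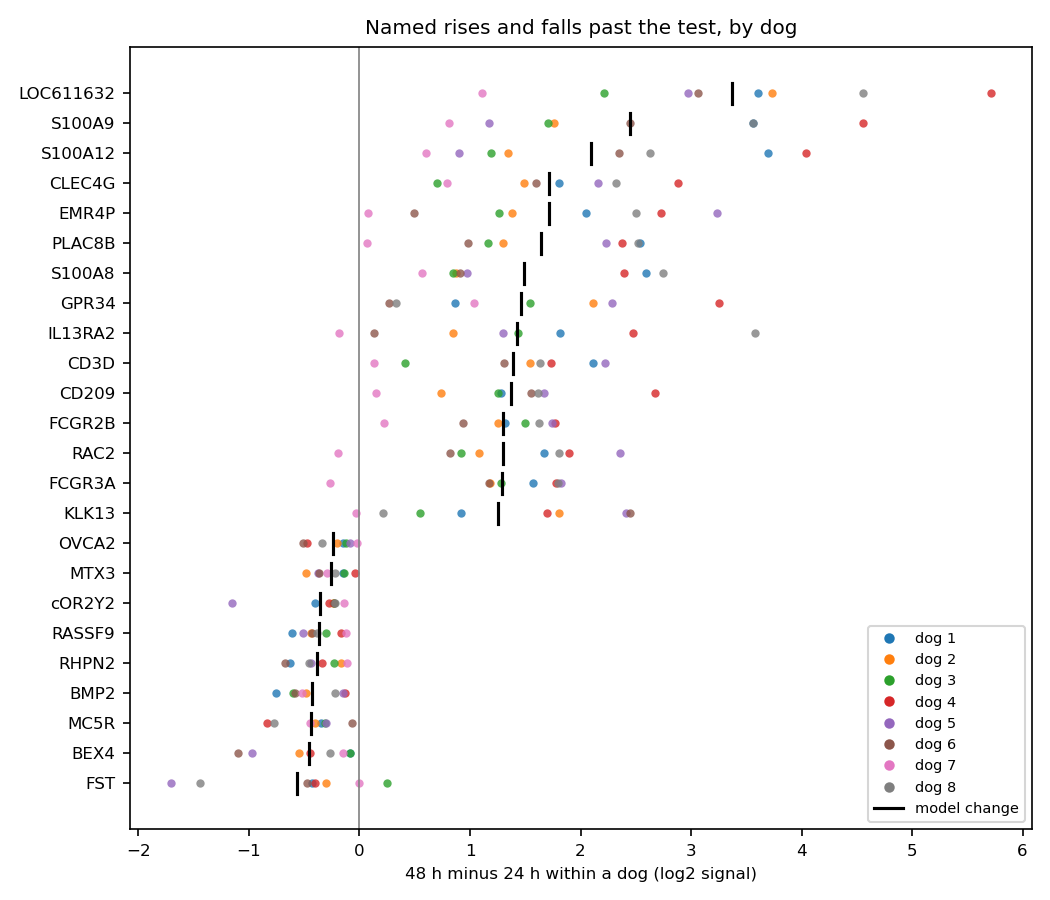
Difference between 48 h and 24 h within each dog (log2 signal, horizontal axis) for the 15 named genes with the largest rises and 9 that fell, with 1 point per dog and the model's change as a bar. The points of LOC611632, S100A9 and S100A12 all lie above 0, and those of dog 7 are among the lowest for most rises.

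Type 2 genes, the core of the allergic response, gave 2 rises among 23 linked members and no fall, with a median of 0.14. The rises were 8.70% of the list, against 2.76% of all linked genes. In sign 18 of the 23 were higher at 48 h, and 9 were below 0.05 before adjustment. IL13RA2, the decoy receptor induced by IL13, had signals of 7.19, 8.26 and 9.26 at 48 h, against 4.52, 7.10 and 9.13 at 24 h. IL13RA2 rose by 1.42 (SE 0.35, limma adjusted p = 0.027) in 7 of 8 dogs. POSTN, periostin, a matrix protein that IL13 induces in fibroblasts, had 8.84, 9.79 and 10.40 at 48 h, against 7.10, 9.08 and 9.80 at 24 h, and rose by 1.12 (SE 0.28, limma adjusted p = 0.032) in 7 of 8 dogs. The dogs lowest at 24 h, dog 8 for IL13RA2 and dog 4 for POSTN, lay within the range of the others at 48 h. Neither call held when dog 1, 2, 4, 5 or 8 was left out (adjusted p up to 0.13 for IL13RA2 and 0.18 for POSTN), and that of IL13RA2 did not hold without dog 3 either. In the fit with the actin gap IL13RA2 had an adjusted p of 0.150 and POSTN 0.179, and without the muscle-rich arrays 0.113 and 0.175.

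The linked type 2 cytokines and chemokines did not pass. CCL17, the chemokine that draws Th2 cells through CCR4, had signals of 5.51, 10.08 and 12.46 at 48 h, against 4.68, 7.52 and 10.37 at 24 h, a difference of 1.87 (SE 0.58, limma adjusted p = 0.085) with 7 of 8 dogs higher. Dog 3 was the exception, and without it the adjusted p was 0.0148. IL9, a mast cell growth factor, differed by 1.48 (adjusted p = 0.13, 6 of 8 dogs higher), and IL13 by 0.83 (adjusted p = 0.15, 6 of 8). Without dog 7 these 2 had an adjusted p of 0.029 and 0.011. CCL24, which attracts eosinophils, differed by 0.69 (adjusted p = 0.12), and the epithelial alarmin IL33 by 0.61 (adjusted p = 0.22). CCL24 had an adjusted p of 0.0218 without dog 1, and IL33 one of 0.0477 without dog 6 and 0.0373 with array weights. CCL17 had one of 0.0454 with array weights. IL4 and IL5 differed by 0.33 and 0.08 (adjusted p = 0.24 and 0.82), at dim signals of 2.30 to 3.62. CCL22, the partner of CCL17, differed by 0.19 (adjusted p = 0.33), and the receptor chain IL4R by -0.06 (adjusted p = 0.81).

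At 24 h against control skin, a comparison that shares the 24 h arrays, 10 of the same 23 genes had risen and none had fallen, with a median of 0.38. There 382 linked genes rose (3.63%) and 759 fell (7.22%). In the acute inflammatory list, 1 of 23 linked genes rose at 48 h against 24 h, and 7 of 23 rose at 24 h against control. IL6 differed by 0.43 (adjusted p = 0.80) between 48 h and 24 h. The interferon-induced chemokine CXCL10 was lower at 48 h in 7 of 8 dogs but differed by -0.76 without passing (SE 0.41, adjusted p = 0.42), and of 20 linked interferon-induced genes limma called 0, with 5 below 0.05 before adjustment. Among 19 linked genes of itch limma called 0, with 3 below 0.05 before adjustment. OSM and its receptor OSMR differed by 0.07 and -0.12 (adjusted p = 0.76 and 0.87).

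**Figure D3:**
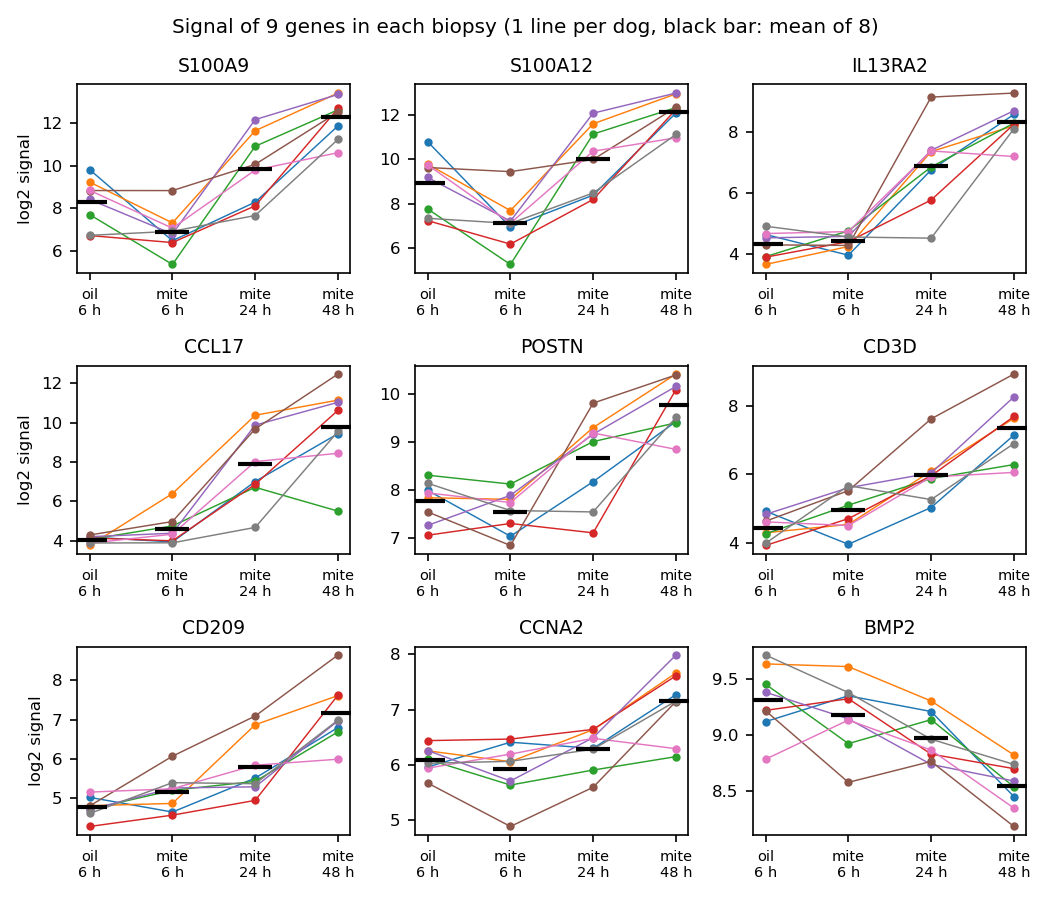
Log2 signal (vertical axes) of 9 genes in oil-patched skin (6 h) and in mite-patched skin (6 h, 24 h and 48 h), with 1 line per dog and a bar for the mean of 8. S100A9 reached 12.27 on average at 48 h, CCNA2 averaged 7.16 at 48 h and 6.29 at 24 h, and BMP2 was lowest at 48 h.

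Of 22 linked dendritic and Langerhans cell genes 9 rose and none fell, with a median of 0.57, and the change was above 0 for all 22. CLEC4G, a lectin of myeloid and sinusoidal cells, had 5.50, 6.97 and 8.10 at 48 h, against 4.51, 4.78 and 6.49 at 24 h, and rose by 1.72 (SE 0.27, limma adjusted p = 0.0025) in 8 of 8 dogs. CD209, the lectin DC-SIGN of dermal dendritic cells and macrophages, had 6.00, 6.98 and 8.64 at 48 h, against 4.95, 5.47 and 7.09 at 24 h, and rose by 1.37 (SE 0.24, limma adjusted p = 0.0037) in 8 of 8 dogs. The groups overlapped for both, with 5 of the 8 CLEC4G signals and 3 of the 8 CD209 signals at 48 h above the highest at 24 h, and both kept their call under each of the 20 alternatives. The others that rose were the GM-CSF receptor chain CSF2RA (0.91), the lymph-node chemokine CCL19 (0.83), LAMP3 of mature dendritic cells (0.78), the costimulator CD86 (0.77), the integrin chain ITGAX (0.63), the growth factor receptor FLT3 (0.57) and CLEC9A of cross-presenting cells (0.40). This count of 9 became 2 when dog 4 or dog 5 was left out and 3 for dog 1 or dog 2. It was 6 without the 24 h array of dog 5, 5 in the fit that ignored the dog, and 2 without the muscle-rich arrays or in the fit with the actin gap.

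Among members that did not pass were the tryptophan-degrading enzyme IDO1 (0.81, adjusted p = 0.12), the costimulator CD40 (0.66, adjusted p = 0.099) and the homing receptor CCR7 (0.13, adjusted p = 0.41). HLA-DMA, which loads peptides onto class II molecules, had 7.76, 8.78 and 9.11 at 48 h, against 6.72, 7.24 and 8.59 at 24 h, and rose by 1.18 (SE 0.20, limma adjusted p = 0.0036) in 8 of 8 dogs. PSMB9, a subunit of the immunoproteasome, rose by 0.85 (SE 0.20, limma adjusted p = 0.024), a call that 5 of the dogs each ended when left out (adjusted p up to 0.12). These were 2 of 5 linked genes of antigen processing, whose median was 0.66, and 4 of the 5 had risen at 24 h against control.

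Macrophage and monocyte genes gave 6 rises and no fall among 17 linked members, with a median of 0.35. FCGR3A, a low-affinity IgG receptor, had 7.85, 9.16 and 9.93 at 48 h, against 6.82, 7.58 and 8.76 at 24 h, and rose by 1.29 (SE 0.22, limma adjusted p = 0.0037) in 7 of 8 dogs. Its inhibitory relative FCGR2B, listed by the authors under a LOC identifier, had 6.77, 7.51 and 7.94 at 48 h, against 5.58, 6.19 and 6.78 at 24 h. FCGR2B rose by 1.30 (SE 0.18, limma adjusted p = 0.0009) in 8 of 8 dogs, and 7 of the 8 arrays at 48 h lay above all 24 h arrays. The 2 receptors are related in sequence, and whether their probe sets tell them apart was not checked. MS4A7, a membrane protein of macrophages, had 5.72, 6.17 and 7.08 at 48 h, against 4.22, 5.28 and 5.61 at 24 h, with no overlap between the groups. MS4A7 rose by 1.11 (SE 0.17, limma adjusted p = 0.0018), and at 24 h it had differed from the control by -0.26 (adjusted p = 0.39).

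The adaptor TYROBP and the calcium-binding protein AIF1 each rose by 0.99 (limma adjusted p = 0.016 and 0.019), the Fc receptor chain FCER1G by 0.50 and the monocyte chemokine receptor CCR2 by 0.25. CCL3, a chemokine linked only through its 24 h and 48 h values, rose by 0.90 (limma adjusted p = 0.045) in 6 of 8 dogs. The monocyte chemokines CCL2 and CCL7 did not pass. CCL2 differed by -0.04 (adjusted p = 0.98) and CCL7 by 0.01 (adjusted p = 0.99), at mean signals of 10.74 and 6.91 at 48 h, against 10.78 and 6.90 at 24 h. CD14, the endotoxin co-receptor, differed by 0.35 (adjusted p = 0.17). LY96, the partner of the endotoxin receptor TLR4, rose by 0.78, and TLR8, a sensor of single-stranded RNA, by 1.05, as 2 of the 3 innate sensor, gasdermin and caspase genes that rose of 24. Each of these 2 lost its call on leaving out any of 5 dogs (adjusted p up to 0.12 and 0.082). Leaving out dog 4, 5 or 8 ended the calls of TYROBP and AIF1 (adjusted p up to 0.10 and 0.082), and leaving out dog 1 also ended that of AIF1. The 6 calls of the macrophage list became 2 when dog 4, 5 or 8 was missing, 3 for dog 1 and 4 for dog 2. They were 2 without the muscle-rich arrays, in the fit with the actin gap or in the fit that ignored the dog, and 4 without the 24 h array of dog 5.

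T cell genes gave 5 rises and no fall among 12 linked members of the receptor complex and its partners, with a median of 0.39 and a change above 0 for all 12. CD3D, a chain of the CD3 complex, had 6.05, 7.39 and 8.93 at 48 h, against 5.03, 5.94 and 7.62 at 24 h, and rose by 1.39 (SE 0.27, limma adjusted p = 0.0068) in 8 of 8 dogs. Dog 6 was the highest at both times, and its 24 h array exceeded 4 of the 48 h arrays. Lymphocyte receptor GPR171 rose by 1.11, the adhesion receptor CD2 by 0.97, the CD3 chain CD3G by 0.86 and the signalling chain CD247 by 0.40, with adjusted p from 0.0076 to 0.047. CD28 differed by 0.63 (adjusted p = 0.12) and CD5 by 0.31 (adjusted p = 0.29). When dog 5 was left out, limma called 0 of the 12, and CD3D had an adjusted p of 0.055. The count was 1 for dog 4, 2 for dog 1 or dog 8, 3 for dog 2, and 1 without the muscle-rich arrays. The fit with the actin gap called 0, and CD3D there had an adjusted p of 0.0504. The fit that ignored the dog called 2.

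BATF, a transcription factor of activated T and B cells, was the 1 riser among 16 linked activation and checkpoint genes, by 0.94 (SE 0.16, limma adjusted p = 0.0034) in 7 of 8 dogs, and passed under all 20 alternatives. Of 18 linked cytotoxic lymphocyte genes 3 rose: the protease CTSW (0.69), the protease inhibitor CST7 (0.52) and the receptor CD160 (0.33). These were 16.7% of the list, against 2.76% of all linked genes. The list median was 0.28, and 12 of the 18 were below 0.05 before adjustment. Granzymes GZMA and GZMB differed by 0.49 and 0.68 (adjusted p = 0.080 and 0.30), the chemokine CCL5 by 0.75 (adjusted p = 0.33), and perforin, PRF1, by -0.24 (adjusted p = 0.20). MZB1, a chaperone of plasma cells, rose by 0.76 as 1 of 13 linked B cell and plasma cell genes, and CCR6, a homing receptor for CCL20, by 0.50 (adjusted p = 0.0068). CTSW, CST7, CD160 and MZB1 each lost the call on leaving out any of at least 4 dogs (adjusted p up to 0.094, 0.14, 0.082 and 0.13). Of 8 linked mast cell genes limma called 0, with 2 below 0.05 before adjustment.

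The genes of dividing cells had the largest share of calls of the lists in the plot of gene lists. Of 21 linked cell cycle and mitosis genes 11 rose and none fell, with a median of 0.40, while at 24 h against control 3 of the 21 had risen, with a median of 0.12. CCNA2, a cyclin of S phase and early mitosis, had 6.15, 7.21 and 7.99 at 48 h, against 5.59, 6.39 and 6.64 at 24 h, and rose by 0.87 (SE 0.17, limma adjusted p = 0.0068) in 7 of 8 dogs. The call of CCNA2 held under all 20 alternatives, and 6 of the 8 arrays at 48 h exceeded all 24 h arrays. The mitotic checkpoint kinase TTK had 3.53, 5.19 and 5.65 at 48 h, against 3.57, 4.26 and 4.59 at 24 h, and rose by 0.88 (SE 0.19, limma adjusted p = 0.013). In TTK, 7 of the 48 h arrays were above all 24 h arrays and that of dog 3 was below them all. Dogs 2, 4, 5 and 8 each ended the TTK call when left out (adjusted p up to 0.074).

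The other members that rose act in replication and mitosis. ASPM, of the spindle pole, rose by 0.85, CDC20, which activates the anaphase-promoting complex, by 0.85, the spindle motors KIF11 and KIF20A by 0.79 and 0.78, thymidine kinase TK1 by 0.75, the checkpoint kinase BUB1B by 0.74, the kinetochore motor CENPE by 0.64, the replication clamp PCNA by 0.38 and the cyclin CCNE2 by 0.36. Against this, CCND1, the cyclin of growth factor signalling, differed by -0.02 (adjusted p = 0.97), UBE2C by -0.03 (adjusted p = 0.91) and E2F1 by 0.11 (adjusted p = 0.66). Dog 7 was the one dog in which CCNA2 was lower at 48 h. The list count of 11 was 2 when dog 2 or dog 5 was left out, 3 for dog 4, 5 for dog 8, 6 for dog 1 and 16 for dog 7. It was 1 without the muscle-rich arrays, 4 in the fit that ignored the dog and 5 in the fit with the actin gap.

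**Figure D4:**
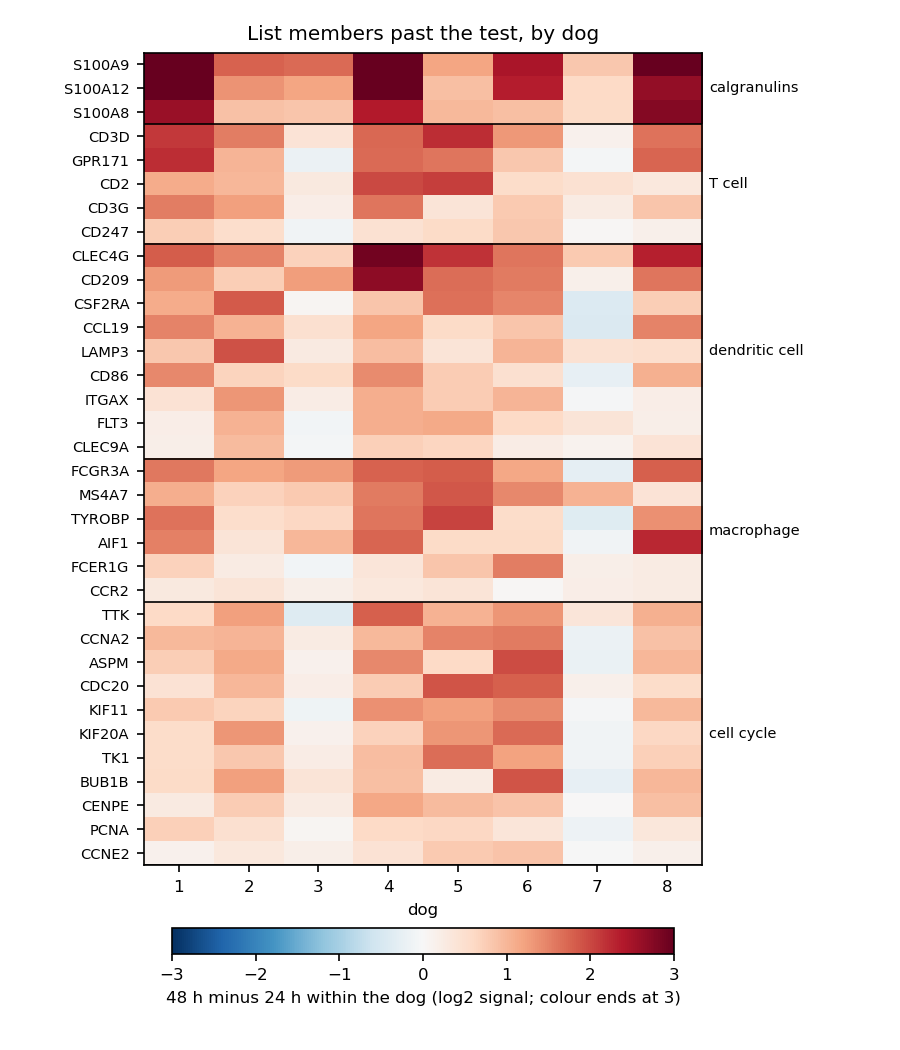
Difference between 48 h and 24 h within each dog (colour, log2 signal, ending at 3 in either direction) for the members of 5 gene lists that passed the test, with genes down the page and dogs across. Dogs 3 and 7 are mostly pale, and the calgranulins are darkest in dogs 1, 4 and 8.

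Keratinocyte and barrier lists gave no calls. Of 18 linked keratinocyte activation genes, 18 cornified envelope genes, 23 junction genes, 34 barrier lipid genes and 8 cholesterol synthesis genes, limma called 0, with medians of 0.09, 0.11, -0.05, -0.02 and -0.07. Before adjustment 3, 2, 1, 4 and 0 of them were below 0.05. CLDN1, a tight junction claudin, differed by -0.07 (adjusted p = 0.87). The 4 linked keratinocyte markers gave mean signals of 8.93 to 9.44 at 48 h, against 8.34 to 9.52 at 24 h. KLK13, a kallikrein protease of stratified epithelia, was the 1 riser of 20 linked serpins, kallikreins and Kazal inhibitors, by 1.25 (SE 0.25, limma adjusted p = 0.0077) in 7 of 8 dogs. Leaving out dog 4 brought its adjusted p to 0.0504.

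Of 19 linked metalloprotease and inhibitor genes 2 rose (10.5%), and of 16 linked collagen genes 1 rose (6.25%), against 2.76% of all linked genes. A single riser in a list this small is near that share and says little about the list. The same holds for the other lists with 1 riser. The epithelial metalloprotease MMP7 rose by 1.17 (SE 0.30, limma adjusted p = 0.036) in 8 of 8 dogs, MMP23B by 0.44 and the microfibrillar collagen chain COL6A1 by 0.41. Dogs 4 and 5 each ended all of these calls when left out (adjusted p up to 0.14, 0.12 and 0.11). POSTN was the 1 riser of 18 linked fibroblast and matrix genes, while LUM, lumican, differed by 0.69 (adjusted p = 0.054) and MFAP4, a microfibril protein, by -0.70, lower in 8 of 8 dogs (adjusted p = 0.059). Adipocyte genes had a median of -0.20, and limma called 0 of 15, with 2 below 0.05 before adjustment. The mean signal of 4 linked adipocyte markers was 6.68 to 8.86 at 48 h, against 8.05 to 9.005 at 24 h.

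Among the further large rises were PLAC8B (1.65), the adhesion receptor family member EMR4P (1.72), the lysophospholipid receptor GPR34 (1.46), which microglia and mast cells express, and RAC2, a small GTPase of blood cells (1.29). Their adjusted p ran from 0.0031 to 0.0081. Leaving out dog 5 ended the calls of EMR4P and RAC2 (adjusted p = 0.070 and 0.067), and leaving out dog 4 also ended that of EMR4P (adjusted p = 0.059).

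Of the linked genes 10 fell, and 9 of them are described here. BMP2, a growth factor of epidermis and hair follicle, had 8.18, 8.56 and 8.82 at 48 h, against 8.73, 8.91 and 9.30 at 24 h, and fell by 0.43 (SE 0.09, limma adjusted p = 0.012) in 8 of 8 dogs. FST, follistatin, which binds activin, had 7.14, 7.74 and 8.70 at 48 h, against 7.61, 8.37 and 8.90 at 24 h, and fell by 0.57 (SE 0.15, limma adjusted p = 0.041) in 7 of 8 dogs. Their signals overlapped between the groups, though 6 of the BMP2 arrays at 48 h lay below all those at 24 h.

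The melanocortin receptor MC5R, which sebaceous glands express, fell by 0.44 at a dim signal. It was the 1 of 13 linked sebaceous and sweat gland genes to pass (7.69%, against 2.85% of all linked genes). BEX4 fell by 0.46, RHPN2 by 0.38, RASSF9, known for a part in mouse epidermal differentiation, by 0.37, the olfactory receptor gene cOR2Y2 by 0.36, MTX3 by 0.26 and OVCA2 by 0.24, each lower at 48 h in 8 of 8 dogs. Each of the 10 calls was lost on leaving out at least 2 of the dogs in turn, and dog 2 was among these for all 10. For BMP2 they were dogs 1 and 2, with adjusted p of 0.052 and 0.051, and for FST 6 dogs, with adjusted p up to 0.19.

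**Figure D5:**
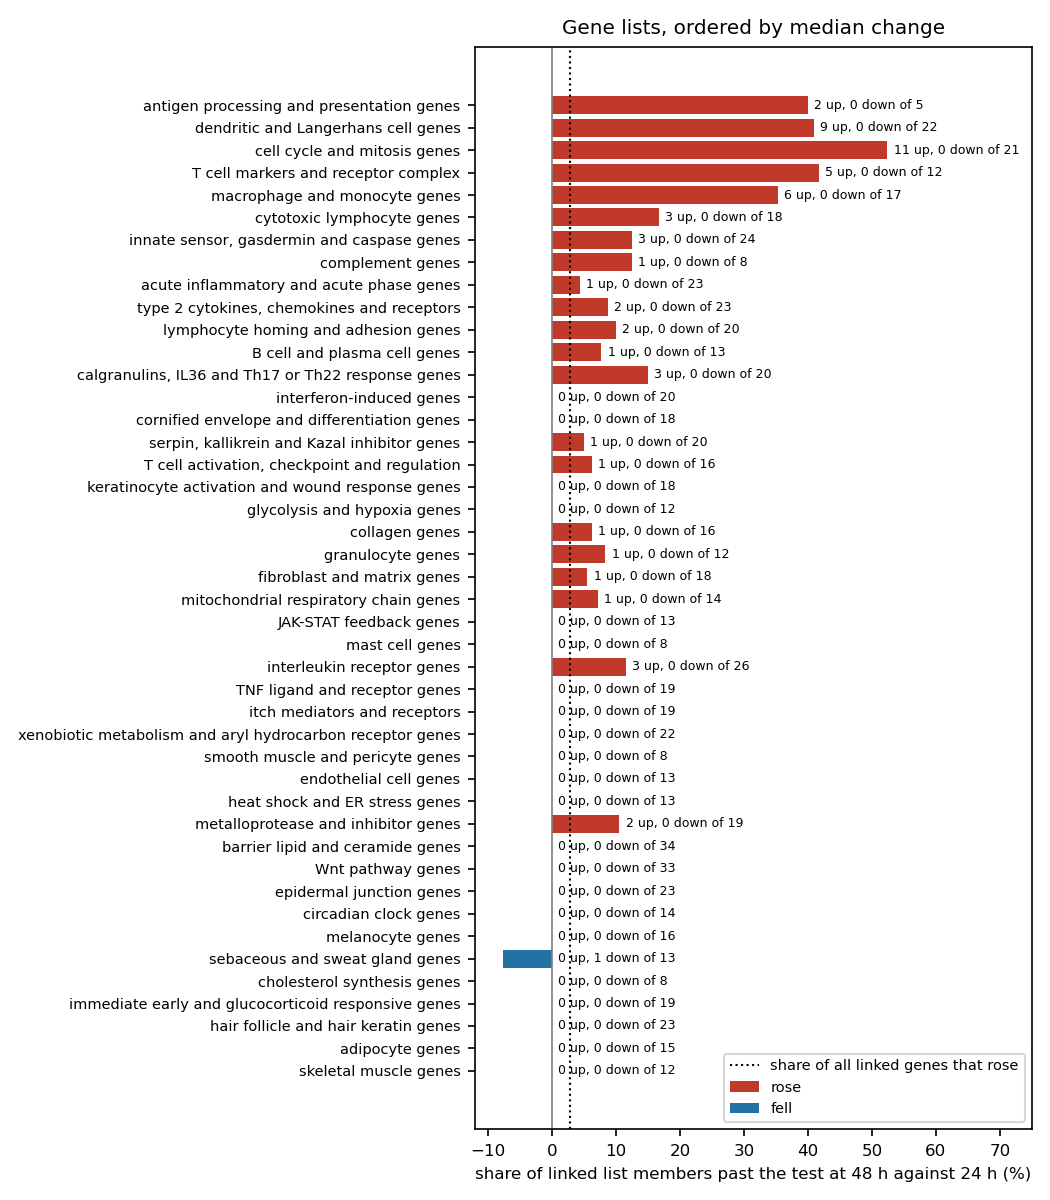
Share of the linked members of each gene list that rose (right of 0) or fell (left of 0) at 48 h against 24 h (percent, horizontal axis), with lists ordered by median change and counts beside the bars. Cell cycle genes have the largest share with 11 of 21, and the dotted line marks the 2.76% of all linked genes that rose.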

How the data were processed

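Biotin-labelled cDNA was made from RNA of each biopsy, per the labels' protocols. The authors deposited log2 values for 43035 probe sets; the sources used here do not state their normalization or the array design. A second table, also from the authors, gives each gene signed folds (a score, with falls written as minus the inverse) and adjusted p-values against control skin, from which only gene names were taken.

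Values were used as deposited. A gene was linked to the 1 probe set whose 3 folds (within 0.05) and adjusted p (within 0.001), from a linear model without the dog, equalled its row. This linked 10513 of 17107 genes (61.5%); with rows shuffled, 27.8 links arose by chance on average. Lists thus cover linked members only. LOC entries took current symbols from RefSeq gene identifiers (837 of 1558).

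limma 3.58.1 in R 4.3.3 fitted 4 groups to 32 arrays, each dog being a fixed block (21 residual degrees of freedom). Tests are 2-sided moderated tests, Benjamini-Hochberg adjusted over 42860 probe sets, without 175 array controls, at a threshold of 0.05; the code was tested on simulated data. The labels name the dog of each biopsy; deviations of a dog's 48 h and 24 h arrays correlated in 8 of 8 pairs (r = 0.17 to 0.39). Array measures were tested by an exact permutation test, with 256 sign changes of the within-dog differences. Precision is limited by the number of arrays.

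Named genes are the up to 15 largest rises and falls past the test that at least 7 of 8 dogs share in sign, up to 4 members per list past the test, and 30 genes of the allergic response. Other list members named in the text were chosen after their values were seen. The comparison, 44 lists and alternatives were chosen with earlier results of these data known. The 20 alternatives included no dog term, a random dog term, 16 arrays only, other scalings and a filter on dim probe sets. The rest were another prior, array weights, covariates, and left-out arrays or dogs. A fold minimum was applied apart from these 20. IL31, TSLP, IL31RA and FLG had no linked probe set. A gene that the rule names is not reported here.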

Additional observations from a re-analysis of the deposited data

Results flagged for a closer look

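In 13 of 156 groups of 8 arrays that were examined, 1 array stood apart from the others, and chance gives this in about 1 group in 20. At 24 h, dog 5 was lowest for CTSW (3.17), CD160 (3.84), CCL22 (4.61) and the array median (4.64), and highest for cOR2Y2 (6.05). Dog 6 was highest at 24 h for CD3D (7.62) and MZB1 (5.60), and dog 8 lowest at 24 h for CST7 (4.22) and IL5 (2.47). At 48 h, dog 3 was lowest for TTK (3.53), dog 6 lowest for CLDN1 (6.48) and highest for the GAPDH 3' minus 5' difference (0.56), and dog 7 highest for MC5R (4.28).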

How the results depend on the processing

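The total of 1096 probe sets past the test was 463 with no replicate block (449 rises and 14 falls) and 433 with the 16 arrays of the 2 groups alone. It was 314 with the actin difference as a covariate, 207 without the 9 muscle-rich arrays, 636 without the 24 h array of dog 5, 125 with a minimum of 2-fold, and 247 to 1627 when each dog was left out in turn. Rises made up 92.8% of the calls, and 84.2% to 97.0% under the 20 alternatives, which do not include the fold minimum. Other scalings, a filter on dim probe sets, another prior, a random block, array weights or the muscle mean as a covariate gave totals of 889 to 1580. Of 55 named calls, 24 held without the block, 16 with the actin covariate, 13 without muscle-rich arrays and 17 without dog 4 or dog 5. The 9 that held under all 20 alternatives were CLEC4G, PLAC8B, CD209, FCGR2B, FCGR3A, HLA-DMA, MS4A7, BATF and CCNA2. Of these, BATF and CCNA2 changed by less than 2-fold. The median share of the named changes kept was 100% without the block, 87.8% with the actin covariate and 99.5% without muscle-rich arrays. It was 92.4% without dog 4 and 94.6% without dog 5. Before adjustment, 5220 probe sets were below 0.05 without muscle-rich arrays and 5987 with the actin covariate, against 5966 in the main fit. CCL17 and IL33 passed with array weights (adjusted p = 0.0454 and 0.0373). Signs turned only in values that had not passed: IFNG was -0.015 with arrays centred on their medians and IL4R 0.019 with the actin covariate. With each dog left out in turn, IFNG ran from -0.020 to 0.047, IL17A from -0.010 to 0.098, IL22 from -0.0019 to 0.15, IL5 from -0.011 to 0.17, OSMR from -0.24 to 0.011, the difference in array median from -0.00089 to 0.032, in the second beta-actin control from -0.21 to 0.0083, and in the GAPDH control from -0.0030 to 0.060. Halving the fold tolerance of the gene link left 1304 genes, since the deposited folds are rounded. Many log2 changes rest on signals below the array medians, where their size is uncertain.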

Other observations

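A further 2687 genes could be linked through their 24 h and 48 h values alone, a weaker match chosen after seeing the data, with about 111 such links expected by chance. Of these, 103 rose and 6 fell at 48 h against 24 h, while over all probe sets 2.37% rose and 0.184% fell. The match itself rests on the 24 h and 48 h values, so these counts and shares are not like for like. SERPINB4, a serpin of stressed epithelium that resembles its neighbour SERPINB3 closely, rose by 2.92 (SE 0.38, limma adjusted p = 0.00058) in 8 of 8 dogs, with a mean of 8.02 at 48 h, against 5.10 at 24 h. LOC612036, annotated as similar to a solute carrier, rose by 2.89 (mean 9.002 at 48 h, against 6.11 at 24 h). FCER1A, the alpha chain of the high-affinity IgE receptor, rose by 1.24 (SE 0.22, limma adjusted p = 0.0038) in 8 of 8 dogs, and its beta chain MS4A2 by 0.71. CD74, the class II invariant chain, rose by 1.32.

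Of 9 complement genes linked in this way 4 rose and none fell: C1R by 0.72, C1S by 0.65, their inhibitor SERPING1 by 0.59 and properdin, CFP, by 0.93. Of the 8 complement genes of the main link 1 rose. The integrin chain ITGB2 rose by 0.99 and the macrophage growth factor receptor CSF1R by 0.59. The genes named here from this weaker link were chosen after their values were seen. The mitotic kinases CDK1, AURKA and AURKB rose by 0.81, 0.59 and 0.58. SGK1, a kinase induced by glucocorticoids, fell by 0.61 in 8 of 8 dogs, and ALDH1A1, a retinoic acid-forming enzyme, fell by 0.61 in 7. CCL26, an eosinophil chemokine, fell by 0.45 (limma adjusted p = 0.041) at dim signals, with means of 2.69 at 48 h, against 3.15 at 24 h. The IL13 receptor chain IL13RA1 rose by 0.45 (limma adjusted p = 0.016) in 8 of 8 dogs.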
